A study of Mus musculus with 6 samples.

Results

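The 10 genes described here store fat in adipocytes, release it again, or encode proteins that adipocytes secrete or carry on their surface. They were taken by gene name from the table of the aged mouse aorta, where all 10 were present among 8690 gene names and all 10 passed the filter of a mean of at least 1 FPKM, a count of fragments scaled by transcript length and by library size. By role they are the lipid droplet proteins Plin1 and Cidec, the lipase Lipe with the receptors Hcar1 and Hcar2, the fatty acid proteins Fabp4 and Lpl, the secreted proteins Adipoq and Cfd, and the carbonic anhydrase Car3. RNA was sequenced from 3 Sirt2-KO aortas (replicates 4, 7 and 8), from mice without the deacetylase Sirt2, and 3 WT aortas (replicates 2, 4 and 8), all of aged C57BL/6 mice, with 3 mice in each group. The labels give neither an age in numbers nor the kind of Sirt2 allele, and they do not say how much of the tissue around the vessel was kept.

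A white adipocyte keeps triglyceride in 1 large droplet whose coat holds perilipin 1, the product of Plin1. Fasting signals release fatty acids through a chain of lipases in which hormone-sensitive lipase, the product of Lipe, follows adipose triglyceride lipase, and the Gi-coupled receptors Hcar1 (for lactate) and Hcar2 (for beta-hydroxybutyrate and niacin) restrain that release. Fat around the aorta, the perivascular fat, is rich in brown-like adipocytes in the chest and in white ones in the abdomen, and it secretes adipokines such as adiponectin onto the vessel wall.

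Sirt2 was at 2.56, 3.32 and 2.23 FPKM in Sirt2-KO replicates 4, 7 and 8, against 26.5, 34.1 and 49.2 FPKM in WT replicates 2, 4 and 8, so the genotype labels and the Sirt2 level matched in all 6 aortas. The smooth muscle genes Acta2 and Myh11 were abundant in every aorta, Acta2 at 3447 to 6731 FPKM in Sirt2-KO and 3759 to 8512 FPKM in WT. In the fit across all 8605 tested genes, limma on log2(FPKM + 1) with Benjamini-Hochberg adjustment and a threshold of 0.05, 2.29% of genes were called higher in Sirt2-KO and 0.616% lower. The table gives no counts, so the depth of each aorta is unknown. WT replicate 8 was the lowest of all 6 aortas for each of the 10 genes, which was so for 19.4% of all tested genes. The number called among the 10 and the medians of the pathway lists are therefore given with and without it.

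Of the 10 genes, 4 rose in Sirt2-KO aortas (Cfd, Car3, Hcar1 and Hcar2), 0 fell and 6 did not pass. All 10 differences were positive, with a median of 2.28 on the log2(FPKM + 1) scale, where the median of all tested genes was -0.08. In 8 of the 10 every Sirt2-KO value lay above every WT value, against 16.0% of all tested genes, and the exceptions were Fabp4 and Lpl. An exact permutation test over the aortas (two-sided) cannot go below p = 0.1 with 3 in each group, and these 8 genes were at that limit. More fat cells and more RNA per fat cell cannot be told apart in whole aortas. Without WT replicate 8 the fit called 7 of 10 genes higher, adding Adipoq, Plin1 and Lipe, where 1.43% of genes were called higher and 0.314% lower. Without Sirt2-KO replicate 7, and likewise without Sirt2-KO replicate 8, it called 0 of 10 (Cfd had the smallest adjusted p in both, 0.0654 and 0.0987). Those fits called only 28 and 29 genes over the whole table, in both directions together. Without Sirt2-KO replicate 4 it called 2 of 10, Cfd and Hcar1, and 344 genes over the whole table.

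**Figure D1:**
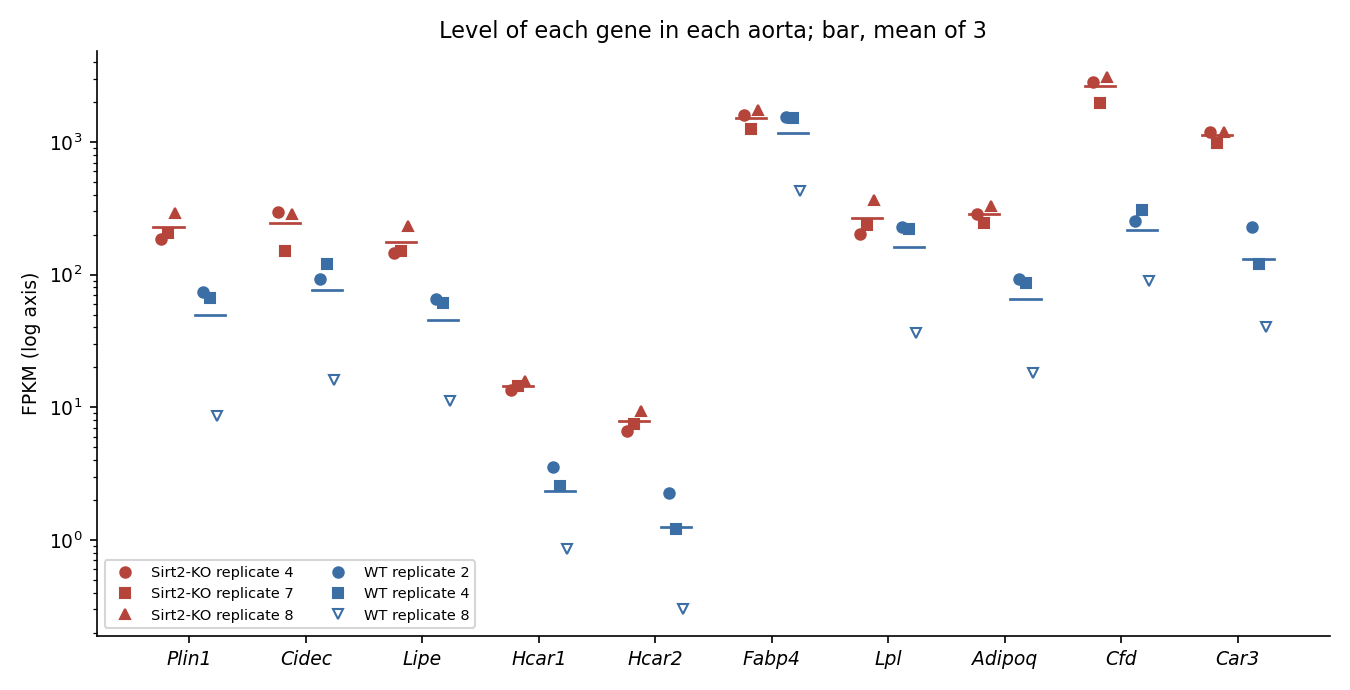
FPKM of each of the 10 genes in each aorta on a log axis, with Sirt2-KO points on the left of each pair, WT points on the right and a bar at the mean of 3. WT replicate 8 (open triangles) is the lowest point of every gene, and Fabp4 and Lpl are the genes where Sirt2-KO and WT points overlap.

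Among the droplet proteins, Plin1, the perilipin that guards the droplet surface and admits lipases when phosphorylated, was at 186, 205 and 294 FPKM in Sirt2-KO replicates 4, 7 and 8, against 73.5, 66.2 and 8.62 FPKM in WT replicates 2, 4 and 8. The groups did not overlap, and WT replicate 8 stood far below the other WT aortas. The means were 228 ± 57.6 FPKM in Sirt2-KO and 49.4 ± 35.5 FPKM in WT (SD, n = 3 each), a 4.62-fold ratio, and the log2(FPKM + 1) difference of 2.63 (SE 0.747) missed the threshold (adjusted p = 0.105). Without WT replicate 8 the difference was smaller, 1.67, but passed (adjusted p = 0.0225), as the spread within WT was smaller too.

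Cidec, which lets lipid pass between droplets so that they fuse into 1, was at 295, 149.9 and 288 FPKM in Sirt2-KO and at 92.7, 121 and 16.0 FPKM in WT. Sirt2-KO replicate 7 lay close to the highest WT aorta, at 1.24 times its level. The difference of 2.02 (SE 0.721, adjusted p = 0.154) did not pass, nor did the difference of 1.13 without WT replicate 8 (adjusted p = 0.177).

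Cidec has 4 rows in the table, which carry no transcript identifiers, and the rows did not keep the same shares in all aortas. The row with the highest mean was at 179, 22.2 and 152 FPKM in Sirt2-KO replicates 4, 7 and 8, against 25.7, 65.2 and 7.31 FPKM in WT replicates 2, 4 and 8, and the groups overlapped (exact two-sided permutation p = 0.3). The second row was at 58.2, 113 and 99.9 FPKM in Sirt2-KO, against 51.3, 33.6 and 3.74 FPKM in WT, and there the groups were apart. In Sirt2-KO replicate 7 the second row held 75.5% of the gene's FPKM, against 19.8% and 34.7% in Sirt2-KO replicates 4 and 8 and 23.3% to 55.4% in WT. Plin1 and Lipe have 6 rows each, and the 3 highest rows of each gene were all higher in every Sirt2-KO aorta than in any WT aorta. Of the 27 rows of all 10 genes, 16 were apart in that direction, 0 in the other, and 11 overlapped. How many rows of all other genes were apart was not counted, so these row counts have no background beside them. Rows of the same gene are also not separate evidence.

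**Figure D2:**
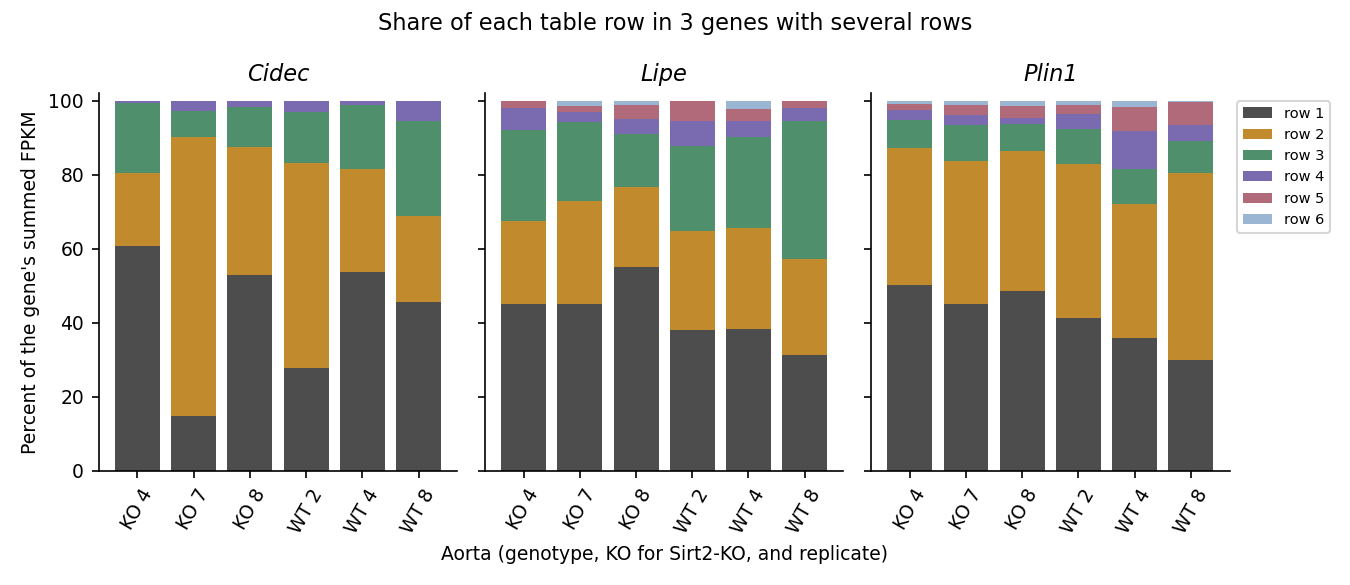
Share of each table row, in percent of the gene's summed FPKM, for Cidec, Lipe and Plin1 in each aorta, with the Sirt2-KO aortas on the left; rows are numbered by their mean over the 6 aortas. In Cidec the row that holds most of the gene differs between aortas of the same genotype, with row 2 at 75.5% in Sirt2-KO replicate 7.

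Promoter windows of RefSeq (GRCm38.p6, 250 bases before to 50 after the transcription start) were found for 6 of the 10 genes, Adipoq, Cfd, Cidec, Hcar1, Lipe and Plin1, and not for Fabp4, Lpl, Car3 and Hcar2. Windows are shown for Adipoq and Plin1, which adipocytes of both kinds make, for Cfd, which differed most, and for both starts of Cidec, whose rows differed between aortas. They were searched on both strands for the TATA box as TATAAA, the CCAAT box as CCAAT, the core of a nuclear receptor site as AGGTCA, a PPAR-type direct repeat of that core with 1 base between the copies, and a C/EBP-type site as TTGCNNAA. Capitals mark matches, and any match of the direct repeat also holds its core.
Adipoq, chr16:23146286-23146585, plus strand: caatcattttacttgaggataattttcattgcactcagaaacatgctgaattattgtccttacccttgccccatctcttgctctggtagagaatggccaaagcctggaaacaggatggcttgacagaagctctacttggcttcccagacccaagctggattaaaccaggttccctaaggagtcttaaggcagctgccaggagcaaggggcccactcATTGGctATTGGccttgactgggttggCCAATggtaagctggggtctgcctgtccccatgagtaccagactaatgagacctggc
Plin1, chr7:79732727-79733026, minus strand: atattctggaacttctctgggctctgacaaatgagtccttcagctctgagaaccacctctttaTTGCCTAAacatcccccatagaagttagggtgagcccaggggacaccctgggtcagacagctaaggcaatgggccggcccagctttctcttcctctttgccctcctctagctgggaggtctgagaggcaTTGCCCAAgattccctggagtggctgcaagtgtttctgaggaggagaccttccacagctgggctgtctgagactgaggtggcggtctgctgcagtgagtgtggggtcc
Cfd, chr10:79890603-79890902, plus strand: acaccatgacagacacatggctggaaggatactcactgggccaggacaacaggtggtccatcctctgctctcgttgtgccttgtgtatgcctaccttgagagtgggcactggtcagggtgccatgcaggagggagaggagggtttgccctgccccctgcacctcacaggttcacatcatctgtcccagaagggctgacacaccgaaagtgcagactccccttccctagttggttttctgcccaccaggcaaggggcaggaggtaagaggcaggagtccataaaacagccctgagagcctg
Cidec, chr6:113435711-113436010, minus strand: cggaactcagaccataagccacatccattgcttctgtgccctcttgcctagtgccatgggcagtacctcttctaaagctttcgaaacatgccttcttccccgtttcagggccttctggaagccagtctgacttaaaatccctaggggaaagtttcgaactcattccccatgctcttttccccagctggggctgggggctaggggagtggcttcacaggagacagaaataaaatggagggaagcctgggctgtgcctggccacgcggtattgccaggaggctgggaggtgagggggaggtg
Cidec, chr6:113434715-113435014, minus strand: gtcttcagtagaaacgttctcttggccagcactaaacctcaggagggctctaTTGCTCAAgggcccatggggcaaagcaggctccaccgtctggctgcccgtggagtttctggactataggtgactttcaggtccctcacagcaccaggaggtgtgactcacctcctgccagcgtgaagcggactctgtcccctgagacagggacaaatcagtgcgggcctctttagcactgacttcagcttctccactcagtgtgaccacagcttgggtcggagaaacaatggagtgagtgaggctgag
With position 1 at the transcription start, the Adipoq window held CCAAT at position -7 and its reverse at -34 and -27, and 37.4% of the 32851 promoter windows held that motif. The Plin1 window held TTGCNNAA at -187 and -58, and the Cidec window that begins at 113434715 held it at -198, in a motif found in 10.8% of windows. No other of the 5 motifs matched in these windows, and the Cfd window matched none of them. TATAAA was in 13.6% of all windows, AGGTCA in 16.3% and the direct repeat in 0.0396%.

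In the lipolysis arm, Lipe, the hormone-sensitive lipase, was at 146, 151 and 234 FPKM in Sirt2-KO replicates 4, 7 and 8, against 65.2, 60.5 and 11.1 FPKM in WT replicates 2, 4 and 8. The groups did not overlap. On the log2(FPKM + 1) scale the groups differed by 2.24 (SE 0.632, adjusted p = 0.103), and 1.45 without WT replicate 8 (adjusted p = 0.0404). Lipe and Plin1 lie on chromosome 7, as Sirt2 does, with 93 and 504 protein-coding genes between each of them and Sirt2 in the RefSeq order of GRCm38.

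Both receptors that restrain lipolysis rose. Hcar1, the lactate receptor, was at 13.4, 14.5 and 15.7 FPKM in Sirt2-KO and at 3.57, 2.55 and 0.846 FPKM in WT. The 3 Sirt2-KO aortas lay closer together than for any other of the 10 genes, with the highest 1.18 times the lowest. Its mean was 14.5 ± 1.18 FPKM in Sirt2-KO and 2.32 ± 1.38 FPKM in WT (SD, n = 3 each), a 6.25-fold ratio, with a log2(FPKM + 1) difference of 2.32 (SE 0.329, adjusted p = 0.0228).

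Hcar2, the receptor for beta-hydroxybutyrate and niacin, was lower in level but moved by the same ratio of means, 6.25-fold. It was at 6.58, 7.52 and 9.36 FPKM in Sirt2-KO, against 2.25, 1.21 and 0.300 FPKM in WT (log2 difference 2.05, SE 0.366, adjusted p = 0.0375). At such levels the pseudocount of 1 counts, and with a pseudocount of 0.1 the difference was 2.87 and missed the threshold (adjusted p = 0.0683). Hcar2 also missed it without WT replicate 4 (adjusted p = 0.0539) and without any 1 of the Sirt2-KO aortas (adjusted p = 0.0614 to 0.182). Hcar1 and Hcar2 are paralogues with 0 protein-coding genes between them on chromosome 5, and the sources used here do not say how reads shared by them were assigned.

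The 2 genes of fatty acid delivery behaved unlike the rest. Fabp4, the fatty acid binding protein of adipocytes that capillary endothelium and macrophages also make, was at 1593, 1251 and 1741 FPKM in Sirt2-KO replicates 4, 7 and 8, against 1552, 1504 and 426 FPKM in WT replicates 2, 4 and 8. The Sirt2-KO values lay around those of WT replicates 2 and 4. The difference was 0.60 (SE 0.497, adjusted p = 0.461) and -0.01 without WT replicate 8 (SE 0.232, adjusted p = 0.980).

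Lpl, the lipoprotein lipase that frees fatty acids from circulating triglyceride, was at 204, 235 and 366 FPKM in Sirt2-KO and at 227, 219.6 and 36.4 FPKM in WT. Again the groups overlapped, with only Sirt2-KO replicate 8 well above WT replicates 2 and 4. The difference was 1.08 (SE 0.686, adjusted p = 0.349) and 0.22 without WT replicate 8 (adjusted p = 0.678).

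Among the secreted proteins, Cfd, the serine protease adipsin that starts the alternative complement pathway, differed most. It was at 2849.6, 1972 and 3072 FPKM in Sirt2-KO replicates 4, 7 and 8, against 255, 309 and 89.6 FPKM in WT replicates 2, 4 and 8. The lowest Sirt2-KO aorta stood 6.39 times above the highest WT aorta. The means were 2631 ± 581 FPKM in Sirt2-KO and 218 ± 114 FPKM in WT (SD, n = 3 each), a 12.1-fold ratio, with a log2(FPKM + 1) difference of 3.74 (SE 0.461, adjusted p = 0.0158).

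Adipoq, which encodes the insulin-sensitizing hormone adiponectin, was at 285, 244 and 328 FPKM in Sirt2-KO and at 93.0, 85.7 and 18.1 FPKM in WT. The groups did not overlap, and the means of 286 ± 41.8 FPKM in Sirt2-KO and 65.6 ± 41.3 FPKM in WT differed 4.36-fold. The log2 difference of 2.40 (SE 0.580) missed the threshold (adjusted p = 0.0768) and passed without WT replicate 8, at 1.66 (adjusted p = 0.0113).

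Car3, a carbonic anhydrase that is abundant in adipocytes, was at 1198, 983 and 1184 FPKM in Sirt2-KO replicates 4, 7 and 8, against 229.7, 121 and 39.98 FPKM in WT replicates 2, 4 and 8. Its WT values were spread 5.75-fold, yet the lowest Sirt2-KO value was 4.28 times the highest of them. On the log2(FPKM + 1) scale it rose by 3.42 (SE 0.565, adjusted p = 0.0309). All 3 rows of Car3 were apart in the same direction.

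**Figure D3:**
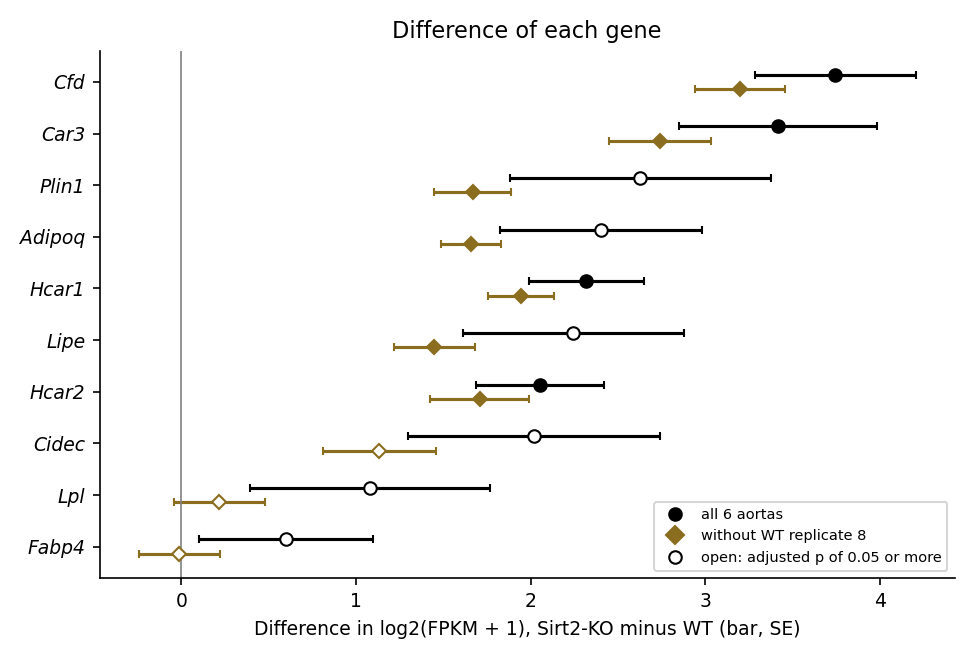
Difference in log2(FPKM + 1), Sirt2-KO minus WT, with its SE for each gene, from all 6 aortas (circles) and without WT replicate 8 (diamonds); filled symbols have an adjusted p under 0.05. Every difference is smaller without WT replicate 8, Fabp4 then lies at -0.01, and Plin1, Adipoq and Lipe pass the threshold in that fit alone of the 2.

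The order of levels, which FPKM allows because it is scaled by length, differed between the genotypes. In Sirt2-KO aortas Cfd was highest (mean 2631 FPKM), then Fabp4 (1528 FPKM) and Car3 (1122 FPKM), and the ranges of these 3 genes did not overlap. In WT aortas Fabp4 was highest (1161 FPKM), apart from Cfd (218 FPKM), and the ranges of Cfd, Lpl (161 FPKM) and Car3 (130.1 FPKM) overlapped with their neighbours in the order. Adipoq, Lpl, Cidec, Plin1 and Lipe followed in Sirt2-KO with overlapping ranges between neighbours, from 286 to 177 FPKM. The receptors Hcar1 and Hcar2 came last in both genotypes.

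Levels relative to Adipoq in the same aorta asked whether the genes moved unequally. Cfd was at 10.002, 8.07 and 9.36 times the Adipoq FPKM in Sirt2-KO replicates 4, 7 and 8, against 2.74, 3.60 and 4.94 times in WT replicates 2, 4 and 8. Car3 was at 4.21, 4.02 and 3.61 times Adipoq in Sirt2-KO, against 2.47, 1.41 and 2.20 times in WT. On the log2 scale, with 1 FPKM added to each gene, the ratio was higher in Sirt2-KO by 1.34 for Cfd and by 1.01 for Car3. Both were apart between the groups (exact two-sided permutation p = 0.1 each, 0.225 when adjusted over the 9 ratios), against 0.128% of all tested genes in that direction. Adipoq itself was higher by 2.40, so only genes that differed by more could have a higher mean ratio. These ratios thus follow from the differences of Cfd (3.74) and Car3 (3.42) and are no separate evidence.

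Fabp4 was at 5.59, 5.12 and 5.31 times Adipoq in Sirt2-KO, against 16.7, 17.5 and 23.5 times in WT, a log2 difference of -1.80. Lpl was at 0.715, 0.963 and 1.11 times Adipoq in Sirt2-KO, against 2.44, 2.56 and 2.01 times in WT, a log2 difference of -1.32. Both ratios were apart (exact two-sided permutation p = 0.1 each, adjusted 0.225), but 93.1% of all tested genes were apart in that direction, so a lower ratio does not set these genes off from the rest. With 1 FPKM added, the ratios of Plin1 (log2 difference 0.22), Cidec (-0.39), Lipe (-0.16), Hcar1 (-0.08) and Hcar2 (-0.35) overlapped between the groups. Their exact two-sided permutation p ran from 0.4 to 1. For the low receptors the sign depends on the added 1 FPKM. As plain FPKM ratios, Hcar1 was at 0.0470, 0.0591 and 0.0480 times Adipoq in Sirt2-KO, against 0.0384, 0.0298 and 0.0466 times in WT, just apart. The plain Hcar2 ratio had a mean of 0.0275 in Sirt2-KO and 0.0183 in WT, with groups that overlapped.

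**Figure D4:**
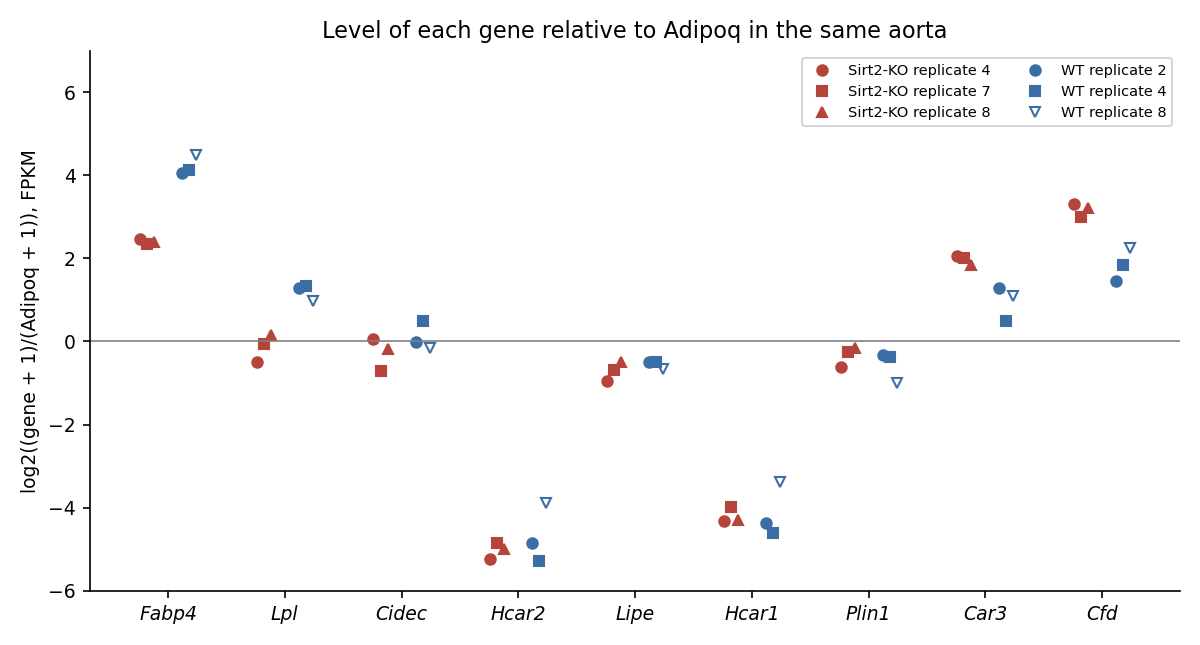
Level of each gene relative to Adipoq in the same aorta, as log2 of the ratio with 1 FPKM added to both, with Sirt2-KO points on the left of each pair and WT points on the right. Fabp4 and Lpl lie lower in Sirt2-KO, Car3 and Cfd higher, and the other 5 overlap; the low WT replicate 8 (open triangles) stays with the other WT aortas for these 4 genes.

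Other genes of the same pathways are set here against all tested genes, of which 2.29% were called higher and 42.1% had a positive difference, with a median of -0.08 both with and without WT replicate 8. Of 18 further tested genes of droplets and triglyceride synthesis, 2 rose and 0 fell, with 16 positive differences and a median of 0.89. Without WT replicate 8 the median was 0.48, 13 differences were positive and 1 gene, Bscl2, was called. Bscl2, which encodes seipin of droplet formation, was at 119, 115 and 132 FPKM in Sirt2-KO, against 56.1, 60.1 and 38.2 FPKM in WT (log2 difference 1.25, adjusted p = 0.0245). Mogat1, a monoacylglycerol acyltransferase, was at 4.47, 4.32 and 5.60 FPKM in Sirt2-KO, against 0.172 and 1.11 FPKM in WT replicates 2 and 4, and was listed at 0 in WT replicate 8 (log2 difference 2.09, adjusted p = 0.0444). Its SD was 0.702 FPKM in Sirt2-KO and 0.598 FPKM in WT, and its WT mean of 0.428 FPKM was under the filter. As the smallest row variance was 1.00003, Mogat1 was tested only through its difference between the groups. Its call is therefore no evidence. Mogat1 was called in 7 of 16 alternatives, and of the 6 aortas left out in turn it passed only without WT replicate 4 (adjusted p = 0.0283, against 0.0742 to 0.213 in the others).

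Of 18 further genes of lipolysis and its control 1 rose and 0 fell by limma, with a median of 0.69, or 0.40 without WT replicate 8. Differences were positive in 14 of them, and 10, in both directions, were at an unadjusted p under 0.05. The share of all tested genes at that level was not counted, so such counts, here and below, have no background beside them. A limma p of 0.0491 in 1 list gene was 0.201 after adjustment, so many genes lie under 0.05. The gene that rose, Pnpla3, a relative of adipose triglyceride lipase, was at 12.4, 21.1 and 21.0 FPKM in Sirt2-KO, against 4.73, 1.87 and 0.422 FPKM in WT (log2 difference 2.71, adjusted p = 0.0392). Pnpla3 was called in 7 of 17 alternatives and missed the threshold without WT replicate 4 and without any 1 of the Sirt2-KO aortas. The beta-adrenergic receptor gene Adrb3, named after its values were seen, was called beside it without WT replicate 8 (log2 difference 1.94, adjusted p = 0.0424). Adrb3 was also called without WT replicate 2, but with all aortas its difference of 2.51 missed the threshold (limma adjusted p = 0.0532).

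Of 14 further genes of fatty acid uptake 1 rose and 0 fell, with a median of 0.23. Without WT replicate 8 that median was 0.0076, 1 gene was called higher and 1 lower. The lower one, named after its values were seen, was the fatty acid binding protein gene Fabp3 of muscle and brown fat (log2 difference -2.49, adjusted p = 0.0408). With all aortas the Fabp3 difference was -1.53 and missed the threshold (limma adjusted p = 0.270). The groups then overlapped, at 34.4, 29.9 and 78.7 FPKM in Sirt2-KO, against 220, 280 and 32.7 FPKM in WT. Slc27a1, a fatty acid transporter, was at 138, 127 and 177 FPKM in Sirt2-KO, against 29.8, 49.4 and 23.6 FPKM in WT (log2 difference 2.12, adjusted p = 0.0182).

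Of 12 further adipokine genes 1 rose and 0 fell, with a median of 0.51, or 0.56 without WT replicate 8. Retn, which encodes resistin, was at 253, 149.6 and 192 FPKM in Sirt2-KO, against 23.5, 37.7 and 7.10 FPKM in WT (log2 difference 3.30, adjusted p = 0.0296). Of 5 further carbonic anhydrases the mitochondrial Car5b rose, to 23.3, 20.3 and 26.5 FPKM in Sirt2-KO, against 3.57, 5.44 and 2.82 FPKM in WT (log2 difference 2.33, adjusted p = 0.00489), and 0 fell. The median of these 5 was 0.30, or 0.045 without WT replicate 8.

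Of 10 adipogenic transcription factors 2 rose and 0 fell, with a median of 0.58. Without WT replicate 8 the median was 0.29 and 1, Cebpa, was called. Cebpa, a C/EBP factor of fat cell differentiation, was at 126, 119.9 and 181 FPKM in Sirt2-KO, against 34.9, 26.4 and 7.84 FPKM in WT (log2 difference 2.78, adjusted p = 0.0378). Mlxipl, the carbohydrate response factor ChREBP, had a log2 difference of 2.11 (adjusted p = 0.0383), and 1.76 without WT replicate 8 (adjusted p = 0.0568). Of 10 genes of adiponectin, leptin and ligand handling, 0 passed by limma, with 3 at an unadjusted p under 0.05 and a median of -0.24 (-0.29 without WT replicate 8). The 2 most abundant of them were the lactate dehydrogenase genes Ldha (log2 difference 0.70, adjusted p = 0.118) and Ldhb (-0.07, adjusted p = 0.870).

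Of the 8 called genes of these lists, Car5b was the 1 that passed with each aorta left out in turn (adjusted p = 0.00257 to 0.0389). Bscl2, Slc27a1, Retn, Cebpa, Mlxipl, Pnpla3 and Mogat1 missed the threshold when Sirt2-KO replicate 7 was left out, and again when replicate 8 of that genotype was. Over the whole table those fits called only 28 and 29 genes. Without WT replicate 2, Bscl2, Slc27a1, Retn, Cebpa, Mlxipl and Mogat1 missed it, and without Sirt2-KO replicate 4, Retn, Cebpa, Pnpla3 and Mogat1 missed it.

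**Figure D5:**
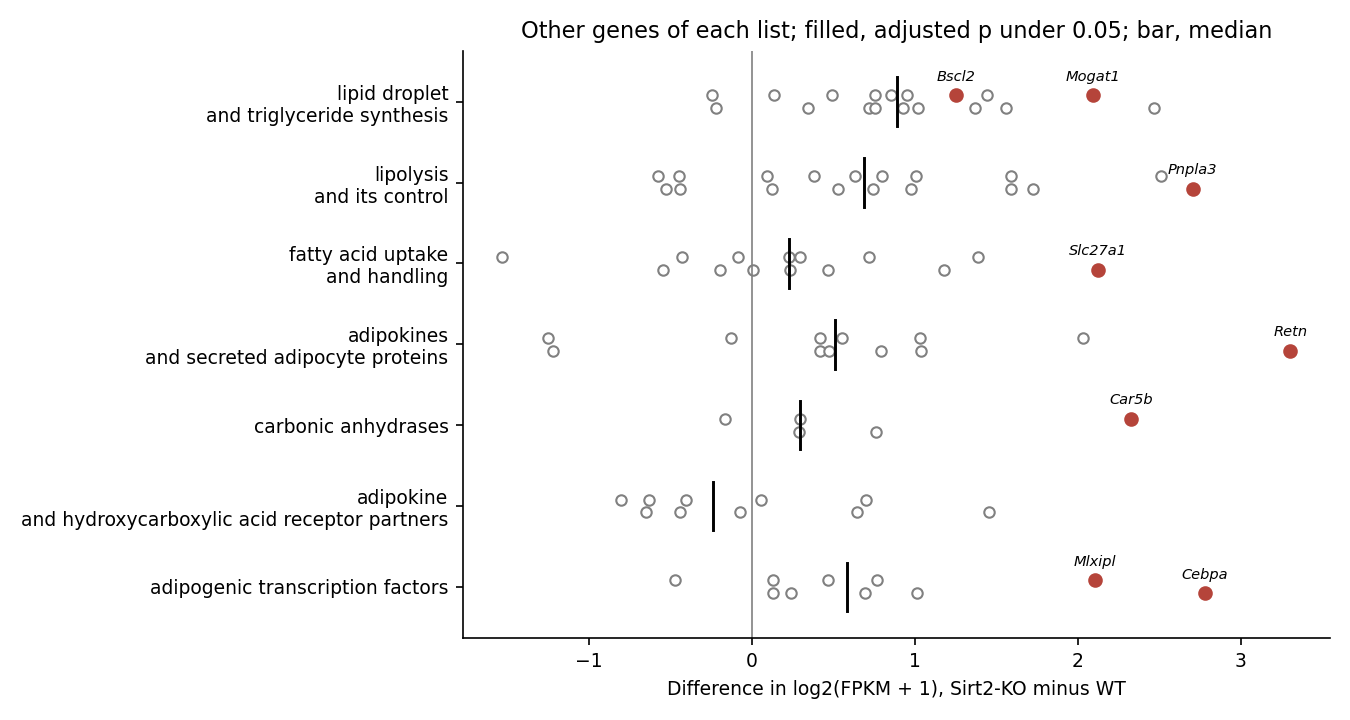
Difference in log2(FPKM + 1), Sirt2-KO minus WT, of every tested gene of each list other than the 10 genes, with filled points where the adjusted p was under 0.05 and a bar at the list's median. The 8 named points are all on the right of 0, and the list of receptor partners has its median below 0.

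The genes whose values over the 6 aortas lay nearest to the mean pattern of the 10 genes were Acp5, Mrap, Lgals12, Fam213a and Cebpa. Likeness was measured as the distance between log2 values centred on each gene's mean, which was 0.388 for Acp5 and 0.703 for Cebpa. Mrap encodes a partner of the melanocortin receptor in fat, and Lgals12 a galectin of adipocytes. Among the 10 genes themselves Adipoq (0.263) and Lipe (0.386) were closest to that mean and Fabp4 (2.04) and Cfd (1.90) farthest.

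Markers of other cell types differed between the groups as well, and their part in these results was not tested. Over all tested genes 2.29% were called higher and 0.616% lower. The share at an unadjusted p under 0.05 was not counted over all tested genes, so marker counts at that level cannot be set against it. Of 12 adventitial fibroblast markers 5 rose and 0 fell by limma, with 11 at an unadjusted p under 0.05 and all 12 differences positive. Their summed level was 2387 to 4515 FPKM in Sirt2-KO, against 1024 to 1596 FPKM in WT. Of 11 macrophage markers 1 rose and 0 fell by limma, but 10 were at an unadjusted p under 0.05 and all 11 differences were positive. Their sums were apart (474 to 779 FPKM in Sirt2-KO, against 159 to 427 FPKM in WT). Of 7 Schwann cell markers 2 fell and 0 rose by limma, with 4 at an unadjusted p under 0.05 (120.5 to 137 FPKM in Sirt2-KO, against 145 to 279 FPKM in WT). Without WT replicate 8, 4 fibroblast and 0 macrophage markers were called higher and 1 Schwann cell marker lower. In that fit 1.43% of all tested genes were called higher and 0.314% lower. With 1 aorta left out in turn the calls were 1 to 11 higher for fibroblasts, 0 to 7 higher for macrophages, 0 to 3 lower for Schwann cells, 0 to 4 higher for red blood cells and 0 to 1 lower for smooth muscle. Calls over the whole table ran from 28 to 344 genes in the same fits, so the marker counts moved along with a changing background. Of 5 red blood cell markers 0 passed by limma, with 4 at an unadjusted p under 0.05, but all 5 differences were positive and the sums were apart, 454 to 1396 FPKM in Sirt2-KO, against 248 to 368 FPKM in WT. Of 10 smooth muscle markers 0 passed, with 3 at an unadjusted p under 0.05, all 10 differences negative (9 of 10 after median-of-ratios scaling) and sums that overlapped (7844 to 14272 FPKM in Sirt2-KO, against 9336 to 17420.0 FPKM in WT). Of 10 endothelial markers 0 passed by limma, with 3 at an unadjusted p under 0.05 and sums that were apart (319 to 361 FPKM in Sirt2-KO, against 365 to 600 FPKM in WT). Of 9 heart and skeletal muscle markers 0 passed by limma, with 2 at an unadjusted p under 0.05. Their sum was 67.1 to 79.3 FPKM in Sirt2-KO, against 68.4, 598 and 59.6 FPKM in WT replicates 2, 4 and 8, so WT replicate 4 stood alone. Of these markers 2, Myl7 and Nppa, were listed at 0 in at least 1 aorta. No marker of fibroblasts, macrophages, Schwann cells, smooth muscle, endothelium or red blood cells was listed at 0 in any aorta.

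Brown adipocyte markers did not pass in either direction (0 of 9 by limma, 2 at an unadjusted p under 0.05), with a summed level of 487 to 1007 FPKM in Sirt2-KO, against 126 to 1110 FPKM in WT. The low end in WT was replicate 8, and the other WT aortas were at 1110 and 1074 FPKM. The median difference of the 9 was 0.13 with 5 positive, and -0.70 with 1 positive without WT replicate 8. Cidea, a droplet protein of brown fat related to Cidec, was at 141, 172 and 345 FPKM in Sirt2-KO, against 254, 181 and 24.2 FPKM in WT (log2 difference 0.95, adjusted p = 0.489).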

How the data were processed

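RNA sequencing of 6 mouse aortas was deposited by the authors as 1 table of FPKM values, 1 column per aorta, per the file headers. Bowtie 0.12.2 and the build mm9 are named, with no role, in the submitters' processing notes, while the sources used here name no quantifier, annotation or filter. Of 14083 rows, 39 whose name had become a date were dropped. The smallest variance of any row was 1.00003, so steadier rows, mainly low ones, are missing and a sum over rows may not cover the whole gene.

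Rows of 1 gene name were summed, and 8605 genes that averaged at least 1 FPKM were fitted with limma 3.58.1 in R 4.3.3 (eBayes with trend, two-sided) on log2(FPKM + 1), which understates changes of low genes. p-values were adjusted over all tested genes. Single values were compared by exact permutation (scipy 1.17.1). Steps were tested on simulated data. The 10 genes and all lists were chosen with earlier results of these data known, so their counts are no independent evidence. Named are the 10 genes, Sirt2, up to 4 called genes per list with the smallest p (or the 2 most abundant), Acta2, Myh11, Ucp1, Cidea and the 5 nearest genes. Genes named under other observations were chosen after their values were seen. Correlations of log2 values between aortas were 0.925 to 0.963 within groups and 0.850 to 0.936 across them. Alternatives covered pseudocounts, filters, scalings, spread models, row choice, the replicate block and each aorta left out.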

Additional observations from a re-analysis of the deposited data

How the results depend on the processing

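Over all genes 250 were called, and 4 of the 10 fat genes. With a minimum mean of 20 FPKM these counts were 141 and 2 (Hcar1 and Hcar2 are then not tested), with arrayWeights 1114 and 7, and with 1 row per gene, its highest, 151 and 3. Leaving out 1 aorta at a time gave 28 to 344 genes and 0 to 7 fat genes. With the replicate number as a block 3 genes and 0 fat genes were called. The groups share only replicate numbers 4 and 8, the deviations of those pairs correlated at -0.0493 and -0.452, and nothing shows that the numbers pair the aortas.

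Cfd was called in 15 of 18 alternatives, Car3 in 14 of 18, Hcar1 in 14 of 17 and Hcar2 in 9 of 16, Adipoq, Plin1 and Lipe in 2 of 18 each, and Cidec, Fabp4 and Lpl in 0 of 18. The difference kept its sign in each of them for 9 of the 10 genes. With 1 aorta left out, Fabp4 ranged from -0.013 (without WT replicate 8) to 0.92 and Cidea from -0.078 (without WT replicate 8) to 1.59. Ucp1, at -0.47 with all aortas, ranged from -1.68 to 0.18 and was above 0 without WT replicate 2 or WT replicate 4 and, at 0.41, with the block. Ldhb, at -0.07 with all aortas, ranged from -0.30 to 0.080 and was at 0.11 with the block. The cause of these moves was not tested. The log2 ratio to Adipoq ranged over its 9 alternatives from 1.14 to 1.54 for Cfd, 0.78 to 1.18 for Car3, -1.89 to -1.67 for Fabp4 and -1.47 to -1.15 for Lpl. Depth is unknown, so low values such as those of Hcar2 carry a counting error that cannot be given.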

Other observations

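Relative to Adipoq in the same aorta, with 1 FPKM added to both, 11 of 8604 genes were apart with Sirt2-KO higher. Cfd and Car3 were among them. The others were Fasn, the fatty acid synthase (log2 ratio higher by 2.74), the desaturase Scd1 (1.74), Thrsp, a regulator of lipogenesis (1.44), the pyruvate carboxylase gene Pcx (1.29), Tmem45b (1.08), H2-Q10 (0.95), Retn (0.90), the carboxylesterase gene Ces1d (0.83) and Orm1 (0.63), which encodes an acute phase protein. Orm1 stood at 46.2, 44.2 and 57.7 FPKM in Sirt2-KO replicates 4, 7 and 8, against 9.96, 9.38 and 1.02 FPKM in WT replicates 2, 4 and 8. Its own difference was not called (limma adjusted p = 0.0533). Ces1d stood at 103, 122 and 205 FPKM in Sirt2-KO, against 31.9, 17.6 and 4.20 FPKM in WT, and was not called either (limma adjusted p = 0.0502).

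The brown fat uncoupling protein gene Ucp1 was at 107, 101.3 and 245 FPKM in Sirt2-KO, against 475, 419 and 35.1 FPKM in WT, so the groups overlapped. Per Adipoq it stood at 0.376, 0.415 and 0.748 times in Sirt2-KO, against 5.10, 4.88 and 1.94 times in WT. Cidea was at 0.495, 0.704 and 1.05 times Adipoq in Sirt2-KO, against 2.73, 2.11 and 1.33 times in WT. For both ratios the groups were apart (exact two-sided permutation p = 0.1, the smallest possible), as they were for 93.1% of all tested genes in that direction.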
